A study of Danio rerio with 2 samples.

Results

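The genes described here encode the enzymes of haem synthesis. They were chosen by name, as 10 listed genes, and matched by symbol to the platform annotation. The annotation names a probe set for 7 of the 10, with 1 probe set each, out of 8793 genes named on the array. For hmbsa, hmbsb and ppox no probe set was named, so step 3 of the pathway (hydroxymethylbilane synthase, encoded by hmbsa and hmbsb) and step 7 (protoporphyrinogen oxidase, encoded by ppox) were not analysed here.

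Haem is the iron-holding porphyrin ring carried by haemoglobin, by the myoglobin of muscle and by the cytochromes of the respiratory chain. Its synthesis begins in the mitochondrion, continues in the cytosol and ends in the mitochondrion, where iron is placed in the ring. Developing red blood cells make most of the body's haem, and zebrafish mutants of several of these enzymes have pale or fluorescent blood. Zebrafish red cells keep their nucleus, and a whole heart holds blood as well as muscle.

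The series holds 2 samples of whole hearts from adult zebrafish, all with the tip of the ventricle cut away. One group was then kept in water and the other in atropine, which blocks the muscarinic receptors for acetylcholine and so the signal by which the vagus nerve slows the heart. Each sample is total RNA from a pool of 15 hearts taken 24 hours after amputation, measured on 1 Affymetrix array. Strain, sex and atropine dose are not given in the labels, and hearts without amputation were not analysed here.

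With 1 array per group there is no replicate check, no test across samples and no p-value, and each value below describes these 2 pools. The number of arrays limits the precision. Values are the deposited expression values on the log2 scale, and a difference is the atropine value minus the water value. Genes were compared where at least 1 of their values reached 4.05, the median over all non-control probe sets, which left 5294 genes. The median of their differences was -0.01, with a standard deviation of 0.27 across genes, which are not replicates. A gene is called higher or lower here when it differed by at least 1.5-fold, or 0.58 on the log2 scale. Of the genes compared, 1.87% were higher and 2.12% were lower in atropine by that measure.

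Neither red blood cell nor heart muscle genes were missing from these arrays. All 12 cardiomyocyte markers with a probe set passed the level filter, as did 13 of 14 erythroid markers and 12 of 13 macrophage markers. Of 10 liver markers with a probe set, 9 were under the filter on both arrays. Liver is another tissue with much haem synthesis.

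No haem synthesis enzyme was 1.5-fold apart between the pools. Of the 6 that passed the level filter, 0 were called higher, against 1.87% of all genes compared, and 0 were called lower, against 2.12%. With so few genes, a count of 0 lies near that background and says nothing particular about the enzymes. Their median difference was 0.03, beside -0.01 over all genes compared. A value above 0 was found in 3 of the 6, against 47.8% of genes compared. The 6 differences ran from -0.23 for alas1 to 0.43 for uros. The remaining one, fech, lay under the filter on both arrays. At a 2-fold threshold 0 enzymes were higher, against 0.397% of genes compared, and 0 were lower, against 0.359%. At a looser threshold of 0.32 (log2) 1 was higher, uros, against 7.42%, and 0 were lower, against 9.43%.

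**Figure D1:**
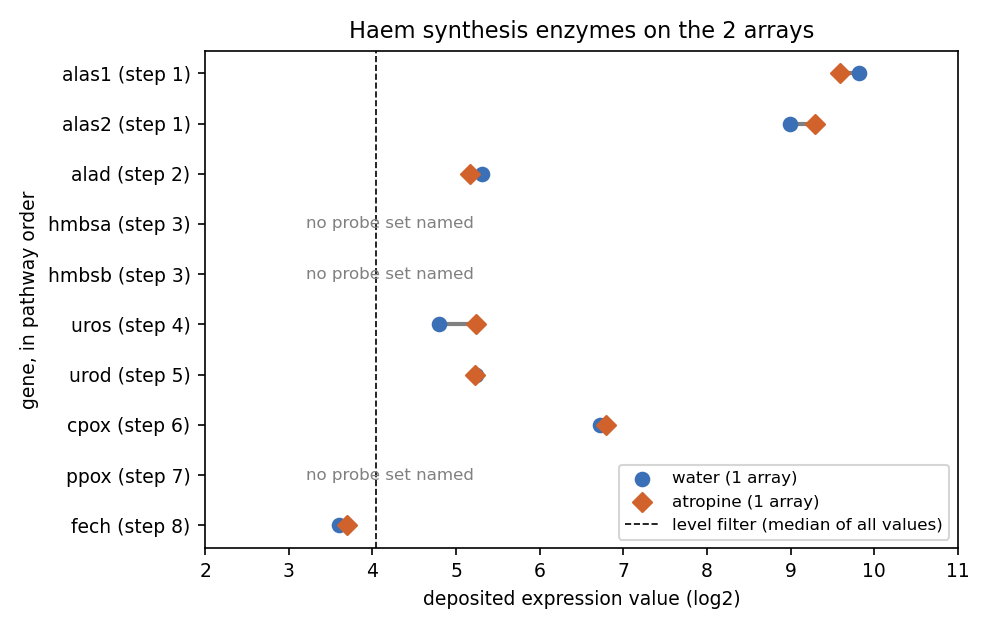
Deposited log2 expression values (horizontal axis) of the 10 listed haem synthesis enzymes in pathway order (vertical axis), with 1 circle for the water array and 1 diamond for the atropine array; the dashed line is the level filter of 4.05. The symbols of each gene lie close together, the widest separation being that of uros (4.80 and 5.23), and fech lies left of the filter on both arrays.

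The pathway starts with 5-aminolevulinate synthase, the mitochondrial enzyme that joins glycine and succinyl-CoA and sets the pace of the pathway. Vertebrates have a form used by most tissues, encoded by alas1, and an erythroid form, encoded by alas2, which is the gene mutated in the zebrafish line sauternes. The probe set for alas1 read 9.82 in water and 9.59 in atropine, a difference of -0.23, or 1.18-fold lower in atropine. The probe set for alas2 read 8.99 in water and 9.29 in atropine, a difference of 0.30, or 1.23-fold higher in atropine. The forms thus stood on opposite sides of 0. Because probe sets bind with unlike strength, the level of one form cannot be set against that of the other, but their differences can.

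Relative to alas1, alas2 was 0.54 (log2) higher in atropine than in water, or 1.45-fold. A shift that moves all genes of an array equally leaves this contrast as it is. As a gauge of measurement error, the 2 brightest probe sets of the same gene were compared in the 648 genes where both passed the level filter. Their differences lay a median of 0.12 apart, and 95% lay within 0.44. Probe sets shared by related transcripts were not left out, so some pairs may share probes and lie closer together than independent readings would. The gap between alas1 and alas2 was reached by 15 of the 648 pairs, or 2.31%. That share concerns probe sets of the same gene, and gaps between different genes were not compared. The differences had a standard deviation of 0.27 across all genes compared, so the share does not mark this contrast as unusual. Among the enzymes, alas1 and uros lay further apart as deposited, by 0.67, as did alad and uros, by 0.58. That order did not hold with 16 added to each value on the linear scale, where uros and alas2 both differed by 0.29. The pairs of probe sets read the same RNA pools, so they bear on the reading of the array. They do not bear on the spread between fish or pools, which cannot be known from 1 pool a group.

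Each form was also set singly against all genes compared. A difference at least as large as that of alas2, in either direction, was found in 18.9% of the genes compared, and one at least as large as that of alas1 in 29.2%. Higher differences than that of alas2 were found in 8.08% of genes, and lower differences than that of alas1 in 16.4%. The gaps between probe sets of a gene correspond to a standard deviation of 0.15 for the difference of a single probe set. This is smaller than the distance of either form from 0, yet gaps between 2 probe sets of that size were not rare. Such a gap carries the error of both probe sets, with a standard deviation of 0.21. A single probe set has the smaller spread, and shares for it were not computed. Of the 648 probe set pairs, 21.8% had a gap at least as large as the difference of alas1. For alas2 the share was 11.7%.

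The cytosolic steps did not share a direction. Aminolevulinate dehydratase, encoded by alad, condenses the product of step 1 into a pyrrole. Its probe set read 5.32 in water and 5.17 in atropine, a difference of -0.15 in the direction of alas1, and 48.8% of genes compared differed at least as much. Uroporphyrinogen III synthase, encoded by uros, closes the ring at step 4. Its probe set read 4.80 in water and 5.23 in atropine, a difference of 0.43, or 1.35-fold, the largest among the enzymes on these arrays.

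The value for uros stood nearest to the call threshold and 3.76% of genes compared had a higher difference. Its level is low, close to the filter in water, and with 16 added to each value on the linear scale, which damps low signals, its difference was 0.29, level with that of alas2 under the same offset. Uroporphyrinogen decarboxylase, encoded by urod, works at step 5 and is the gene mutated in the zebrafish line yquem, whose blood fluoresces with stored porphyrin. Its probe set read 5.24 in water and 5.23 in atropine, and the difference of -0.01 was the one nearest 0 among the enzymes. The consecutive enzymes uros and urod were therefore 0.44 apart in their differences as deposited. With the offset they stood closer, at 0.29 and -0.01.

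The last steps return to the mitochondrion. Coproporphyrinogen oxidase, encoded by cpox, works at step 6 in the space between the mitochondrial membranes. Its probe set read 6.73 in water and 6.80 in atropine, a difference of 0.07 that 73.4% of genes compared equalled or passed. Ferrochelatase, encoded by fech, inserts iron at step 8 and is the gene mutated in the zebrafish line dracula. Its probe set read 3.60 in water and 3.69 in atropine, a difference of 0.09 at a level under the filter, where a change in the transcript might not show. Of the 4 mitochondrial enzymes with a probe set, fech included, 3 were above 0, with a median of 0.08. Of the 3 cytosolic enzymes 1 was above 0, with a median of -0.01. Over all genes compared the share above 0 was 47.8%, and so few enzymes cannot be set apart from it.

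**Figure D2:**
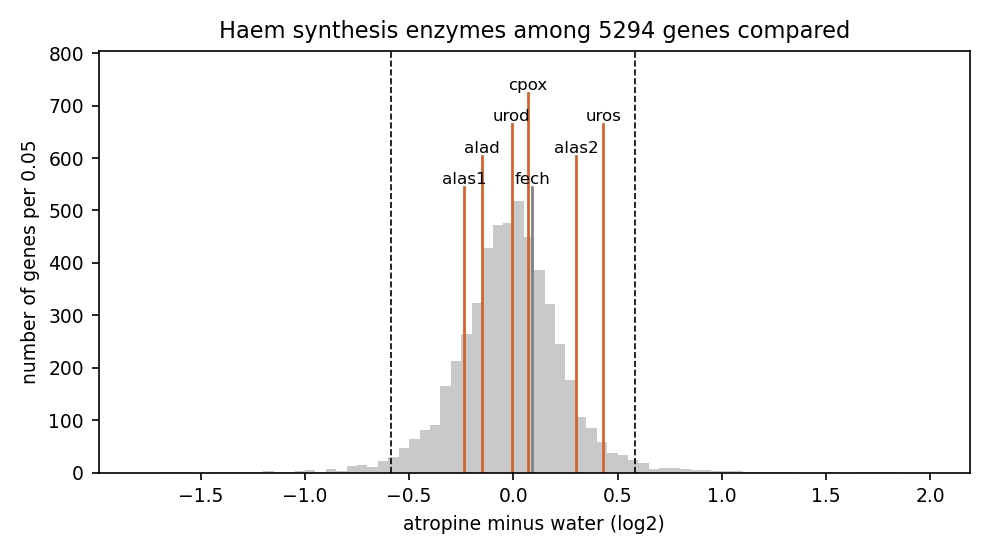
Number of genes (vertical axis, in bins of 0.05) by atropine minus water difference on the log2 scale (horizontal axis) for the 5294 genes compared, with a line at each enzyme (orange for those past the level filter, grey for fech) and dashed lines at 1.5-fold. Line heights only separate the names. All 7 enzymes lie between the dashed lines, from alas1 at -0.23 to uros at 0.43.

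Red blood cell genes moved with the groups on these arrays, and they are set beside the enzymes here because the erythroid precursor is the main site of haem synthesis. Of 13 erythroid markers past the filter, 8 were at least 1.5-fold higher in atropine, against 1.87% of genes compared, and 0 were lower, against 2.12%. Their median difference was 0.68. The linear values of the 14 markers with a probe set summed to 2783 in water and 3655 in atropine. In whole-heart RNA, more red cells and more of these transcripts per cell cannot be told apart. The list was chosen with results of these arrays known, and its share in the differences of alas2 and uros was not tested.

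The erythroid transcription factor gene klf1 read 6.39 in water and 7.26 in atropine, a difference of 0.88. The gene tal1, for a transcription factor of blood and vessel precursors, read 4.69 in water and 5.54 in atropine, a difference of 0.85. These are the 2 markers with the largest differences, so a smaller value for alas2 was nearly fixed by the choice. The alas2 difference lay 0.58 below that of klf1 and 0.55 below that of tal1. It lay 0.20 below that of slc4a1a, and above those of prdx2 at 0.12, sptb at -0.01 and nt5c3a at -0.24. All other markers past the filter differed by more than alas2. The genes slc4a1a, prdx2, sptb and nt5c3a are named outside the rule after their values were seen. The other erythroid-linked comparison is with the globins, the proteins that hold the haem. The adult beta-globin gene hbba2 read 10.18 in water and 11.52 in atropine, a difference of 1.33, while hbaa1, the alpha-globin gene, differed by 0.20 between 13.25 and 13.45. The alas2 difference therefore lay 1.03 below that of hbba2 and 0.10 above that of hbaa1. Of 4 globin genes past the filter, 1 was called higher, against 1.87% of genes compared, and 0 lower, against 2.12%. Their median was 0.23, and so few genes cannot be set apart from that background. Near the filter lay hbbe2 (4.29 in water, 4.56 in atropine) and hbae3 (4.08 and 3.99), both named outside the rule. The difference of hbae3 was -0.09 on its brighter probe set and 0.09 on the other. With the filter at the upper quartile, the 2 globin genes left had a median of 0.77, beside -0.02 over all genes compared there. The near-identical copies of the globin genes may share probes, and hbaa1, named outside the rule after its value was seen, sits close to the top of the array's range. Whether the enzymes differ from the erythroid markers or the globins was not tested.

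**Figure D3:**
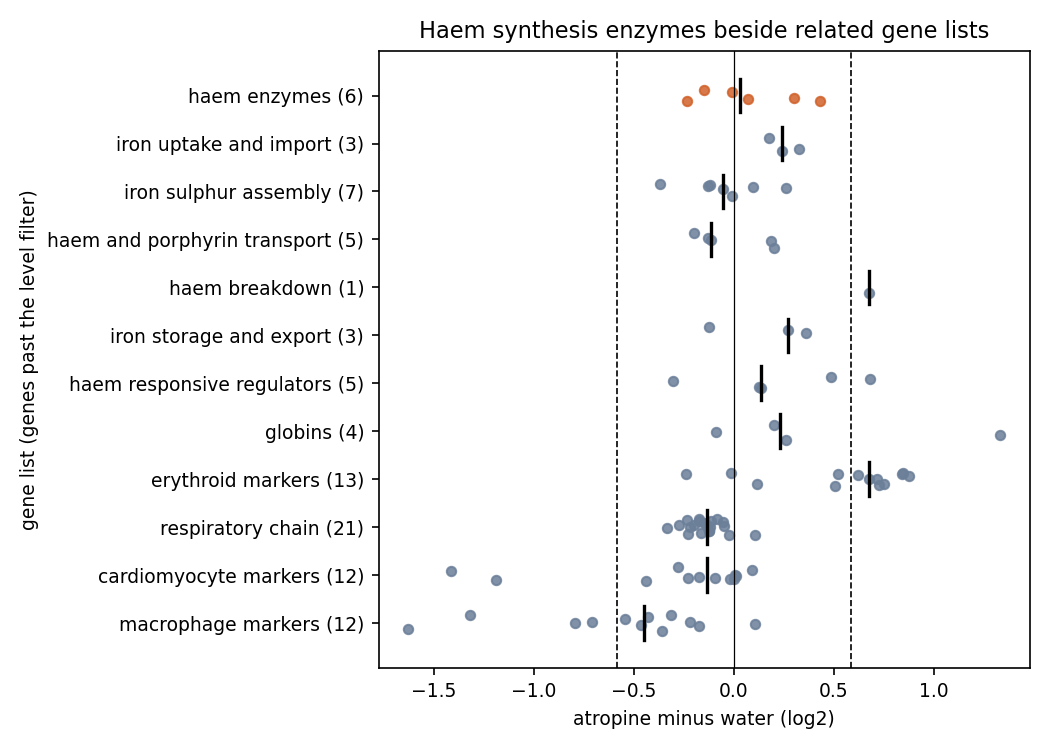
Atropine minus water difference on the log2 scale (horizontal axis) for each gene past the level filter, by gene list (vertical axis, with the number of genes); black bars are medians, dashed lines mark 1.5-fold, and the vertical scatter within a row has no meaning. The haem enzymes straddle 0 around a median of 0.03, while the erythroid markers have a median of 0.68 and the macrophage markers one of -0.45.

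Genes that handle iron and haem around the pathway were grouped in lists. The 5 lists, of iron uptake, iron-sulphur assembly, haem and porphyrin transport, haem breakdown, and iron storage and export, hold 58 gene names, of which 23 had a probe set and 19 passed the filter. Of the 19, 1 was called higher, against 1.87% of genes compared, and 0 were called lower, against 2.12%. Such counts are too small to set apart from that background. The median was 0.10. The called gene was blvrb, which encodes biliverdin reductase B, an enzyme of bile pigment and flavin reduction that is abundant in red cells and also stands in the erythroid list. It read 7.35 in water and 8.02 in atropine, a difference of 0.68. It was the sole member of the haem breakdown list with a probe set, so the haem oxygenases were not analysed here.

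All 3 iron uptake genes past the filter had values above 0, against 47.8% of genes compared, with a median of 0.24. None was called, against 1.87% of genes compared higher and 2.12% lower. So few genes cannot be set apart from that background. The metal ion transporter gene slc11a2, mutated in the zebrafish line chardonnay, differed by 0.32 between 7.18 and 7.50. The transferrin gene tfa, whose product carries iron in plasma, differed by 0.24 between 6.69 and 6.93. The gene for mitoferrin 1, slc25a37, which brings iron into the mitochondrion of red cell precursors, lay under the filter at 2.97 in water and 2.88 in atropine and is named outside the rule after its values were seen. The 3 iron storage and export genes past the filter had a median of 0.27, and none was called, against the same shares. The ferritin heavy chain gene fth1a differed by 0.36, with near-identical ferritin copies making this value uncertain. The gene ncoa4, whose product delivers ferritin for breakdown, differed by 0.27. The third, slc40a1, named outside the rule, went the other way at -0.12.

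Iron-sulphur assembly joins the pathway because mitochondrial iron is shared between clusters and haem. None of its 7 genes past the filter was called, against 1.87% of genes compared higher and 2.12% lower. The median was -0.05, which is the value of hspa9 on its brighter probe set. It was -0.01 with the mean over probe sets and -0.12 with the filter at the upper quartile. The glutaredoxin gene glrx5, mutated in the zebrafish line shiraz, differed by -0.12. The mitochondrial chaperone gene hspa9 differed by -0.05 on its brighter probe set and by 0.16 on the other, so its direction was not settled. The list of haem and porphyrin transport is not of transporters alone. Of its 5 genes past the filter none was called, against the same shares, with a median of -0.11. That median is the value of clpxa, which encodes no transporter and is named outside the rule, on a probe set shared by related transcripts. Without such probe sets the median was 0.08, and with the mean over probe sets 0.03, so its direction was not settled. Among the transport genes tspo, which encodes an outer mitochondrial membrane protein that binds porphyrins, differed by 0.20. The gene tmem14ca, which encodes a porphyrin carrier of the inner membrane, differed by -0.13.

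Regulators and mitochondrial genes are set beside alas1. Haem binds nuclear receptors of the Rev-erb family, and in mammals the coactivator PGC-1alpha raises Alas1. The regulator list gave 5 genes past the filter, the Rev-erb genes nr1d2a and nr1d2b, the PGC-1beta gene ppargc1b, the respiratory factor gene nrf1 and the clock gene npas2, of which nr1d2b, ppargc1b, nrf1 and npas2 are named outside the rule. Of the 5, 1 was called higher, against 1.87% of genes compared, and 0 lower, against 2.12%, with a median of 0.14. The called gene, the Rev-erb gene nr1d2a, differed by 0.68 from a water value of 3.43 under the filter, and by 0.31 with the linear offset, which ends the call. The other Rev-erb gene, nr1d2b, read 7.03 in water and 7.51 in atropine, a difference of 0.48 that was not called. Its second probe set, under the filter on both arrays, differed by 0.35. Of the 5 genes, 4 were above 0, against 47.8% of genes compared, and npas2, at -0.30, was below. The list median is the value of ppargc1b on its brighter probe set. On its other probe set, also past the filter, ppargc1b differed by -0.10, so its direction was not settled. With the mean over probe sets the list median was 0.13. So few genes cannot be set apart from the background. Nuclear genes of the respiratory chain, whose cytochromes use haem, had a median difference of -0.13 over 21 genes. None was called, against 1.87% of genes compared higher and 2.12% lower. Of the 21, 20 were below 0, as were 2753 of the 5294 genes compared. The difference of alas1, at -0.23, is on that side, as are those of the named members, the complex IV-associated gene ndufa4a at -0.23 and the ATP synthase gene atp5f1b at -0.08. The 12 cardiomyocyte markers had a median of -0.13. Of them 2 were called lower, tnnc1a at -1.41 and myh7 at -1.19, against 2.12% of genes compared. By sign, 8 of the 12 were below 0 and 4 above, the highest at 0.09, against 47.8% of genes compared above 0. The 12 macrophage markers had a median of -0.45 with 4 called lower, against 2.12% of genes compared. The lowest were the MHC class II invariant chain genes cd74a at -1.63 and cd74b at -1.32. The part of these cell types in the alas1 difference was not tested.

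Scaling the arrays to chosen genes shifts every difference alike. Relative to the cardiomyocyte markers, whose median was -0.13, the median of all genes compared lay at 0.12. Relative to the 13 polyadenylated bacterial controls past the filter, which are added before labelling and had a median of -0.48, it lay at 0.47. The differences of these controls ran from -0.86 to -0.13, a wide spread for a scaling constant. Under the latter scaling 2 of the 6 enzymes, alas2 and uros, were at least 1.5-fold higher, against 28.6% of genes compared, a count near that background. There alas1 stood at 0.24, so its sign turned, while it stayed below the median of all genes; alad turned likewise, to 0.33. Relative to that median, alas1 lay between -0.23 and -0.20 and alas2 between 0.30 and 0.33 over the 10 alternatives run. Most of these could hardly move the values. A constant shift cancels against the median, and the filters and probe set rules cannot alter a gene with 1 probe set. Only quantile normalization, loess and the offset could change the gene's own value relative to others.

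**Figure D4:**
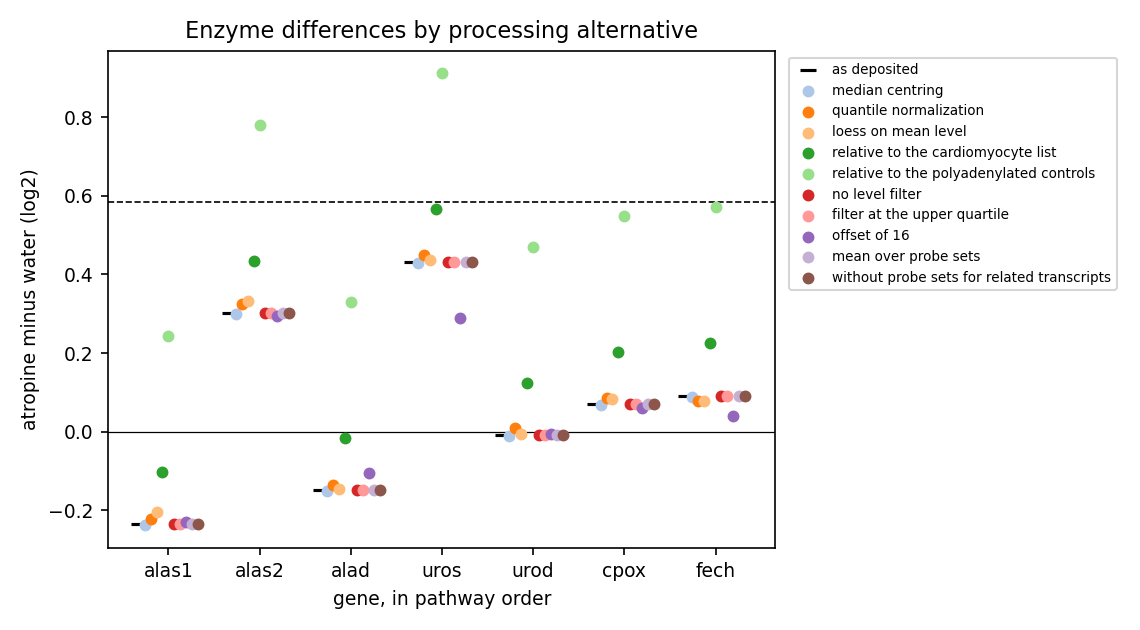
Atropine minus water difference on the log2 scale (vertical axis) of each enzyme in pathway order (horizontal axis), as deposited (black bars) and under 10 processing alternatives (coloured points); the dashed line marks 1.5-fold. Points of a gene lie close to its bar except under the scalings to the cardiomyocyte and polyadenylated control sets, which shift every gene alike, and the linear offset, which lowers uros from 0.43 to 0.29.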

How the data were processed

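Per the labels' protocols, total RNA was labelled by an Affymetrix 3' IVT procedure. The authors deposited log2 expression values for 15617 probe sets on each array, 115 of them controls. That the scale is log2 was judged from the values, 2.02 to 14.05. How they were summarised and normalized is not given in the sources used here, but the array medians, 4.04 and 4.05, were close, so an overall shift in RNA content would not show. Detection calls were not used here, so signal over background is unknown.

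Of 15502 non-control probe sets, 10795 had 1 gene symbol, 135 several and 4572 none. Symbols were updated through Entrez identifiers to RefSeq names, found for 99.2%. No coordinates or sequences were used. A gene was represented by its brightest probe set. Of each other list, up to 2 genes called per direction are named, or else the brightest 2. Members and lists were chosen with earlier results of these data known. Of 192 names in 12 other lists, 88 had no probe set. The alternatives were 5 rescalings, 2 level filters, an offset of 16 and 2 probe set rules. The tools were numpy 2.4.6 and pandas 2.3.3 under Python 3.11.15, with statsmodels 0.14.6 for loess (span 0.4).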

Additional observations from a re-analysis of the deposited data

How the results depend on the processing

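The absence of enzymes at least 1.5-fold apart held under 9 of the 10 alternatives and at a 2-fold threshold. Scaled to the polyadenylated controls, 2 enzymes were at least 1.5-fold higher (alas2 at 0.78 and uros at 0.91), against 28.6% of all genes compared. The enzyme median was then 0.51 beside 0.47 for all genes. Of the 49 genes past the filter in the iron and haem handling, regulator, globin and respiratory chain lists, 17 were higher, against 28.6%. As deposited, 3 of the 49 were higher (blvrb, nr1d2a and hbba2), against 1.87% of genes compared. Among these, nr1d2a passed the filter only on the atropine array and lost its call with the offset, and blvrb is also an erythroid marker. At a threshold of 0.32 (log2) 1 enzyme was higher, uros, against 7.42% of genes compared. No enzyme was called lower under any of these. The level filter and the choice of probe set cannot move an enzyme's own value, since each has 1 probe set. The value of urod, at -0.01, took the other sign under 3 of the scalings. With the offset the erythroid markers called higher numbered 5 in place of 8. The share of all genes was 1.87% as deposited and was not computed under the offset. No paired analysis was possible because each group holds 1 array. The unknown signal over background limits fech most.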
